A study of Mus musculus with 12 samples.

Results

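The circadian clock genes *Per1*, *Per2*, *Per3*, *Cry1*, *Cry2*, *Nr1d1*, *Nr1d2*, *Dbp*, *Tef* and *Ciart* were examined in the retinal pigment epithelium (RPE) of 1-mo WT and rd6 mice. They are 10 of the 28591 genes in the table, were chosen by symbol as clock repressors and direct clock outputs, and all 10 passed the filter on low values (a mean of at least 10 normalized counts), as 17768 genes did. A normalized count is the number of reads on a gene divided by the size factor of its library. RNA was sequenced from 6 WT mice (genotype wt, C57BL/6J in the sample titles) and 6 rd6 mice (*Mfrp* rd6/rd6), with the RPE of both eyes of a mouse combined into 1 library. The rd6 allele is a recessive germline splice mutation of *Mfrp*, the gene of membrane frizzled-related protein, so it is present in every cell of the mouse and not in the RPE alone. The study's methods list *Mfrp* rd6/J among its strains, and give a 12-h/12-h light/dark cycle and the use of both sexes. The hour at which each eye was taken is not given in the sources used here, and the question put to the clock genes was whether their levels differed between the genotypes as levels taken at different hours would.

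The clock of mammalian cells is a feedback loop of transcription. CLOCK and BMAL1, the latter encoded by *Arntl*, bind E-boxes and activate the *Per*, *Cry* and *Nr1d* genes, *Dbp*, *Tef* and *Ciart*, and the PER and CRY proteins then repress their own activators. The REV-ERB receptors encoded by *Nr1d1* and *Nr1d2* repress *Arntl*, *Cry1* and *Nfil3*, whereas the ROR receptors activate the same genes, and for this reason *Arntl* and *Nr1d1* or *Dbp* peak at opposite times of the day. DBP and TEF are PAR bZIP factors that carry the rhythm to output genes through D-boxes. In the eye, the RPE has its own clock and takes up shed photoreceptor outer segments with a daily rhythm.

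The promoters of the 4 genes that passed the test below and of *Cry1*, the only one of the 10 with a higher mean in rd6, are shown. They were searched for the E-box, to which CLOCK and BMAL1 bind, and for its variant. The sequences are from RefSeq (GRCm38.p6) and run 5′ to 3′ on the strand of the gene, from 250 bases before the annotated start up to the start or to the first base that GENCODE M21 counts as exon. Capitals mark matches to the E-box CACGTG or to the E-prime box CACGTT, which reads AACGTG on the other strand.
*Ciart* (chr3:95882252-95882478, minus strand): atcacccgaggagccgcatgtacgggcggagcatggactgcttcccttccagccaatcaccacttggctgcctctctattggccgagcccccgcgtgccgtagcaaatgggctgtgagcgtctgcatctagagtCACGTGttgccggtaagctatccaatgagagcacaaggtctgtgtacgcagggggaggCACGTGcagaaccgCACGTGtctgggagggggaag
*Nr1d1* (chr11:98775378-98775627, minus strand): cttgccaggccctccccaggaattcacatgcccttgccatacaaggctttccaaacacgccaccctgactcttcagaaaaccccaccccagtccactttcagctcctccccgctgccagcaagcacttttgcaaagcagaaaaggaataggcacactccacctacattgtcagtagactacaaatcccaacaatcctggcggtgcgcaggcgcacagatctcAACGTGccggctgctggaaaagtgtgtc
*Tef* (chr15:81811164-81811413, plus strand): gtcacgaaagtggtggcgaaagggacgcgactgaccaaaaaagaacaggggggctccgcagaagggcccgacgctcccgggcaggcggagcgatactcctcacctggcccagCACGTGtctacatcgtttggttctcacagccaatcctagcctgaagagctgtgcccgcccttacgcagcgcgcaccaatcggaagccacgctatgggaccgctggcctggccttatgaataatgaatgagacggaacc
*Nr1d2* (chr14:18239128-18239356, minus strand): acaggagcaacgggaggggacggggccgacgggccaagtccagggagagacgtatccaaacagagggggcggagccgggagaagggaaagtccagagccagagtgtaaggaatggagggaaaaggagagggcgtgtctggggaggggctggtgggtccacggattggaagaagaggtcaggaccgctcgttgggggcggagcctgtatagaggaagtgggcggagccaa
*Cry1* (chr10:85185065-85185304, minus strand): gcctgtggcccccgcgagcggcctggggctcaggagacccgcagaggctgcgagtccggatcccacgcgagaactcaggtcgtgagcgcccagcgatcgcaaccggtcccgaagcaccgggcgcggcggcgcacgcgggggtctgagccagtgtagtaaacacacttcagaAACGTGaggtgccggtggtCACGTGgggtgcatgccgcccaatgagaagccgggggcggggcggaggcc
Promoter entries were found for 9 of the 10 genes. *Ciart* had 3 E-boxes, 116, 58 and 44 bases before its start. *Tef* has annotated starts at more than 1 site, and the promoter shown had 1 E-box 138 bases before its start, while *Nr1d1* had 1 E-prime box 28 bases before its start. *Cry1* had both, the E-box at 60 and the E-prime box at 79 bases, and the *Nr1d2* window had no match to any motif searched. Over the 250 bases, an E-box was found in 4 of the 9 genes (*Ciart*, *Cry1*, *Per1* and *Tef*) and in 6.02% of the 32851 promoters of the RefSeq table. A gene was counted if any of its promoters matched (11 promoters in the 9 genes), while the percentages are of single promoters. An E-prime box was found in 3 (*Cry1*, *Cry2* and *Nr1d1*), against 3.85% of promoters. The D-box (TTATGTAA or TTACGTAA) occurred in *Per3* alone, at 205 and 158 bases, against 0.931% of promoters. Neither the cAMP response element TGACGTCA (1.55% of promoters) nor the ROR element, AGGTCA with at least 4 A or T among the 5 bases before it (2.37%), was found in the 9 genes. Both strands were searched, and a match describes letters only.

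Reads on genes numbered 29218135 to 33152725 in the WT and 28907262 to 32336530 in the rd6 libraries. The mutated gene *Mfrp* was at 30132 to 45442 normalized counts in WT and 20442 to 29732 in rd6, without overlap. *Xist* was at 10783 to 21004 normalized counts in 2 libraries of each genotype (WT 3 and 4, rd6 1 and 2) and at most 57.6 in the others. In bulk RNA, fewer cells of a type and less RNA per cell cannot be told apart. Of 10 RPE markers, 4 were lower in rd6, and their summed level was 1492000 to 2254330 in WT and 1406523 to 1898942 in rd6. Of 12 rod markers, 3 were lower (summed level 26478 to 65814 and 12838 to 60926), and of 12 microglia and macrophage markers 11 were higher (14419 to 20348 and 25025 to 39031). Of 8 endothelial markers, 6 were higher (5844 to 10892 and 9420 to 21598), of 8 choroidal stroma markers 1 was lower (17405 to 25899 and 11701 to 23759), and of 10 inner retina and Müller glia markers 1 was lower (58353 to 60458 and 48544 to 52266). This last sum was mostly *Glul*, the marker that passed (53679 to 57266 in WT and 43940 to 50105 in rd6). No marker of these lists was at 0 in any library. Library WT 4 stood apart by the Müller glia gene *Aqp4* (618 normalized counts, at most 129 in the other WT libraries), and rd6 5 by the summed level of rod markers (60926, at most 19330 in the other rd6 libraries). The part of these markers in the results below was not tested, and counts are also given without WT 4 and rd6 5.

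At an adjusted p-value below 0.05, *Nr1d1*, *Nr1d2*, *Tef* and *Ciart* were lower in the rd6 RPE, and none of the 10 clock genes was higher. The share of 4 in 10 stands beside 11.6% of all genes tested that were lower and 11.4% that were higher. None of the 10 also passed the fold limit of the study, a difference of 0.81 on the log2 scale, which 6.8% of all genes tested passed together with the p-value in either direction. At an unadjusted p below 0.05 there were 5 of the 10 by limma, the fifth being *Cry1* with a higher mean in rd6, against 35.3% of all genes tested in either direction. At an adjusted p below 0.05, edgeR with TMM scaling and DESeq2 each also gave 4 lower, 0 higher and 0 past both limits. In 9 of the 10 genes the rd6 mean was the lower one, with a median log2 difference of -0.23, against 0.0049 over all genes tested. All 6 rd6 libraries lay below all 6 WT libraries in 2 of the 10, *Nr1d1* and *Nr1d2*, and in 5.67% of all genes tested. Over all genes 2024 were higher and 2062 lower, against 1981 and 2085 with edgeR and TMM scaling and 2374 and 1583 with edgeR and upper-quartile scaling, under which 2 of the 10 clock genes were lower. Without WT 4 and rd6 5, 5 of the 10 were lower, the fifth being *Dbp* (adjusted p = 0.0458), with 0.00804 for *Nr1d1*, 0.00112 for *Nr1d2*, 0.0238 for *Ciart* and 0.00111 for *Tef*. In that fit the calls over all 17768 genes also rose, to 2331 lower and 2244 higher.

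**Figure D1:**
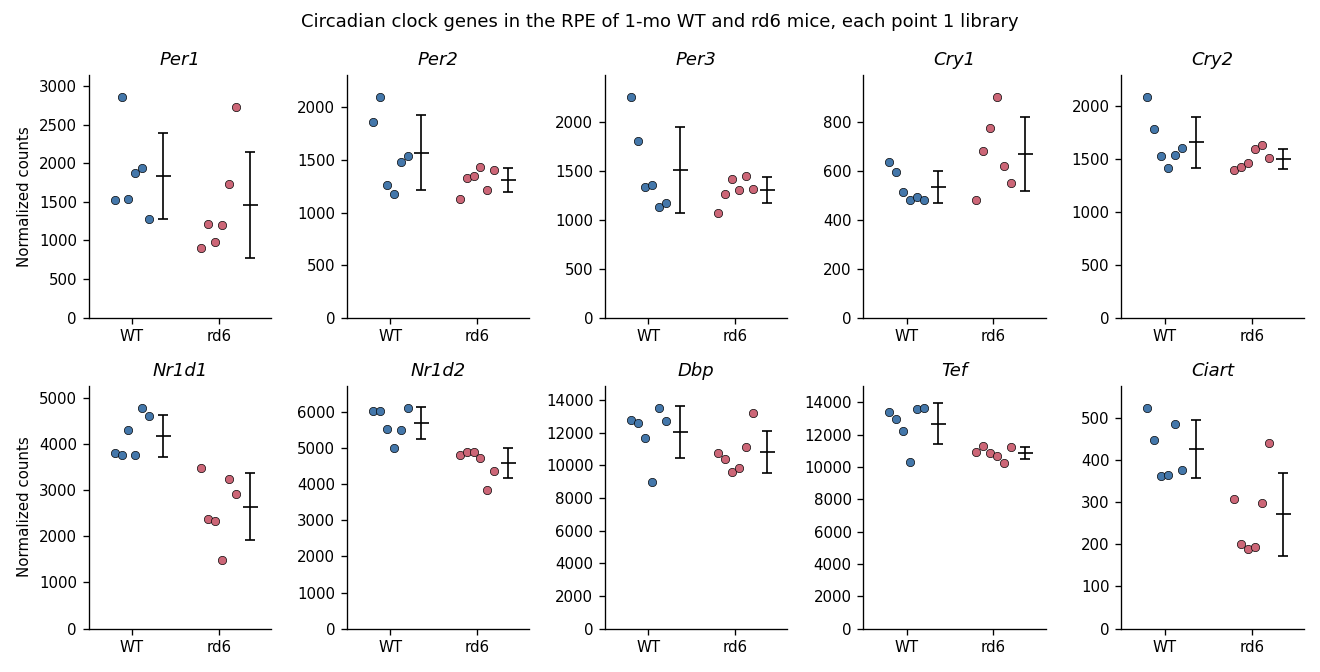
Normalized counts (y axes, from 0) of the 10 clock genes in each of the 6 WT and 6 rd6 libraries (points), with the mean and SD beside them (bar and whiskers). The 2 genotypes do not overlap in *Nr1d1* and *Nr1d2*, and in *Ciart* 5 of the 6 rd6 libraries lie below the lowest WT library.

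The REV-ERB genes had the clearest difference. *Nr1d1* (ENSMUSG00000020889, chr11:98767932-98775333, mm10) was at 3815, 3772, 4299, 3753, 4788 and 4606 normalized counts in WT 1 to 6 and at 3480, 2379, 2340, 1487, 3235 and 2916 in rd6 1 to 6. The highest rd6 library lay under the lowest WT library, and the rd6 libraries were the more spread, from 1487 to 3480. The means were 4172 ± 458 in WT and 2639 ± 724 in rd6 (SD, n = 6), a log2 difference of -0.71 ± 0.17 (SE, adjusted p = 0.0106, 95% interval -1.08 to -0.33), or 1.63-fold lower, and the exact two-sided permutation test gave p = 0.00216, the smallest that 6 libraries against 6 allow. *Nr1d1* shares 263 exonic bases (8.55% of its own) with *Thra* on the opposite strand, and counting is described as Rsubread with standard parameters, whose default does not use the strand, so reads of overlapping genes cannot be told apart. *Thra* differed by -0.03 ± 0.07 (log2, SE, adjusted p = 0.82).

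*Nr1d2* (ENSMUSG00000021775, chr14:18204054-18239127), which encodes the second REV-ERB receptor, was at 5016, 5782 and 6132 in WT (lowest, median and highest of 6) and at 3854, 4770 and 4914 in rd6. The groups were again separate, with the lowest rd6 value in rd6 5. The log2 difference was -0.31 ± 0.07 (SE, adjusted p = 0.00663, 95% interval -0.47 to -0.16), or 1.24-fold lower, with an exact permutation p of 0.00216. Both REV-ERB genes passed under all 23 alternatives, with adjusted p-values of 0.00094 to 0.0252 for *Nr1d1* and 0.00043 to 0.0209 for *Nr1d2*. The 2 genes were lowest in different rd6 libraries, *Nr1d1* in rd6 4 and *Nr1d2* in rd6 5.

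*Ciart* (ENSMUSG00000038550, chr3:95878503-95882251), the gene of the CLOCK-BMAL1 repressor CHRONO, had the sequence with 3 E-boxes above. Its values were 525, 447, 362, 364, 486 and 376 in WT 1 to 6 and 308, 201, 190, 193, 297 and 440 in rd6 1 to 6. Of the rd6 libraries, 5 lay below the lowest WT value, and rd6 6 lay among the WT values. The log2 difference was -0.71 ± 0.20 (SE, adjusted p = 0.0229, 95% interval -1.14 to -0.27), or 1.63-fold lower, with an exact permutation p of 0.0108. The call was lost without WT 1 (adjusted p = 0.0526), rd6 2 (0.0527) or rd6 3 (0.0513), and with edgeR and upper-quartile scaling (0.0537).

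The PAR bZIP genes *Dbp* and *Tef* had the highest normalized counts of the 10. *Tef* (ENSMUSG00000022389, chr15:81802421-81826863) was at 10305, 13186 and 13674 in WT (lowest, median and highest) and at 10277, 10882 and 11302 in rd6. All WT libraries except WT 4 were above the highest rd6 library, and WT 4 was the library with the lowest summed level of RPE markers in WT. The log2 difference was -0.22 ± 0.07 (SE, adjusted p = 0.0342, 95% interval -0.36 to -0.07), or 1.16-fold lower, with an exact permutation p of 0.0152. This call held under 10 of 23 alternatives. It was lost with no filter (adjusted p = 0.0511), with TMM rescaling (0.053), with edgeR and upper-quartile scaling (0.078), with the replicate block (0.0636), and without WT 1 (0.0731), WT 2 (0.0693), WT 3 (0.0516), WT 5 (0.0638), WT 6 (0.0746), rd6 1 (0.057), rd6 3 (0.0606), rd6 4 (0.0591) or rd6 5 (0.0613). It shares 193 exonic bases (2.45%) with *Gm17597* on the opposite strand.

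*Dbp* (ENSMUSG00000059824, chr7:45705088-45710203), among the genes with the widest daily swing in most mouse tissues, was at 12773, 12618, 11709, 8986, 13542 and 12725 in WT 1 to 6 and at 10791, 10395, 9590, 9823, 11108 and 13206 in rd6 1 to 6. WT 4 was lower than every rd6 library and rd6 6 was higher than all but 1 WT library, so the groups overlapped. The log2 difference of -0.15 ± 0.10 (SE) did not pass (adjusted p = 0.315, exact permutation p = 0.19), and its 95% interval ran from -0.37 to 0.07. Without WT 4 it was -0.23 and passed (adjusted p = 0.041). *Dbp* shares 539 exonic bases (18.0%) with *Sphk2* on the opposite strand, which differed by 0.12 ± 0.10 (log2, SE, adjusted p = 0.417). *Hlf*, the third PAR bZIP gene, was at 4419 to 4916 in WT and 4417 to 5134 in rd6, with a log2 difference of 0.02 ± 0.05 (SE, adjusted p = 0.751, 95% interval -0.08 to 0.13).

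The *Per* genes, whose proteins are the repressors that set the pace of the loop, did not pass the test. *Per1* (chr11:69095217-69109960), which also answers to light and hormones, was at 1274, 1703 and 2859 in WT (lowest, median and highest) and at 908, 1208 and 2731 in rd6. A single library in each genotype was far above the rest, WT 2 and rd6 6, and 4 rd6 libraries were below the lowest WT library. The log2 difference was -0.39 ± 0.26 (SE, adjusted p = 0.312, 95% interval -0.95 to 0.17), so that a fall beyond the fold limit lies within the interval. *Per2* (chr1:91415982-91459324) was at 1175, 1511 and 2100 in WT and 1130, 1341 and 1430 in rd6. Of the WT libraries, 4 were above the highest rd6 library, and the log2 difference was -0.24 ± 0.13 (SE, adjusted p = 0.212, 95% interval -0.51 to 0.04). *Per3* (chr4:151003652-151044665), which carries the D-boxes, was at 1130, 1349 and 2258 in WT and 1071, 1310 and 1446 in rd6, with a log2 difference of -0.17 ± 0.15 (SE, adjusted p = 0.452, 95% interval -0.51 to 0.16).

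The *Cry* genes, which encode the partners of the PER proteins, had differences of opposite sign, and neither passed. *Cry1* (chr10:85131700-85185064) was at 636, 594, 511, 482, 493 and 482 in WT 1 to 6 and at 481, 681, 773, 901, 621 and 551 in rd6 1 to 6. Of the rd6 libraries 3 were above the highest WT library and rd6 1 was below the lowest. The log2 difference was 0.30 ± 0.14 (SE, adjusted p = 0.14, 95% interval 0.0019 to 0.60), with an exact permutation p of 0.0801, and without rd6 1 it was 0.39 and passed (adjusted p = 0.0463). *Cry2* (chr2:92403646-92434043) was at 1416, 1571 and 2091 in WT and 1399, 1486 and 1638 in rd6, a log2 difference of -0.13 ± 0.09 (SE, adjusted p = 0.295, 95% interval -0.32 to 0.05), and it shares 295 exonic bases (4.67%) with *D930015M05Rik* on the opposite strand.

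Per kilobase of exon, the scale on which genes can be compared, the WT level was highest for *Dbp* (4029 ± 539 normalized counts per kb, SD, n = 6), followed by *Tef* (1614 ± 163), *Nr1d1* (1356 ± 149) and *Nr1d2* (1055 ± 80.4). The others were lower, from *Per1* (326 ± 99.1), *Per2* (268 ± 60.3), *Cry2* (263 ± 38.5) and *Ciart* (189 ± 30.8) to *Cry1* (160 ± 19.7) and *Per3* (157 ± 45.6). Of neighbours in this order, the 6 WT libraries were separate between *Dbp* and *Tef*, *Nr1d1* and *Nr1d2*, and *Nr1d2* and *Per1*, and overlapped in the other 6 pairs. In rd6 the level of *Nr1d1* was 858 ± 235 and that of *Nr1d2* 850 ± 76.8 per kb, and *Ciart* (120 ± 43.5) was below *Cry1* (200 ± 45.8) and *Per3* (136 ± 13.9). The length used is the union of all annotated exons, and a gene whose long isoforms are little used is understated by it.

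The 25 other clock genes of the lists gave 6 lower (*Rora*, *Rorb*, *Bhlhe41*, *Csnk1d*, *Btrc* and *Cipc*) and 1 higher (*Tspan4*) in rd6, against 11.6% lower and 11.4% higher over all genes tested, with a median log2 difference of -0.19. None of the 7 reached the fold limit. Among the 7 activators, *Arntl* was at 207, 265, 403, 546, 289 and 330 in WT 1 to 6 and at 297, 190, 181, 211, 222 and 200 in rd6 1 to 6. WT 4 was the highest of WT and rd6 1 the highest of rd6, and 3 rd6 libraries were below the lowest WT library. Its log2 difference was -0.60 ± 0.20 (SE, adjusted p = 0.0523, 95% interval -1.04 to -0.15), just outside the limit, and it passed with edgeR (TMM, adjusted p = 0.0439), with DESeq2 (0.0143), without WT 1 (0.0177) and without rd6 1 (0.0329). *Clock* was at 2090 to 2982 in WT and 1539 to 2385 in rd6 (log2 difference -0.32 ± 0.11, SE, adjusted p = 0.0573), and it passed with DESeq2 (0.0414), without WT 5 (0.0435) and without rd6 1 (0.0267). Without WT 4 and rd6 5 neither passed (*Arntl* -0.46, adjusted p = 0.0857, and *Clock* -0.19, adjusted p = 0.147). *Npas2*, which can stand in for *Clock* in neural tissue, was at 181.6 in WT 4, 101.7 in rd6 1 and 82.2 in rd6 5, and at 47.7 or less in the other 9 libraries. *Aqp4* was at 618, 198 and 204 in the same 3 libraries and at 139.7 or less elsewhere, and the part of neural retina in the levels of *Npas2* and *Arntl* was not tested.

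*Rora* and *Rorb* encode ROR receptors, which compete with the REV-ERBs, and both were lower. *Rora* was at 2108 to 2724 in WT and 1823 to 2173 in rd6 (log2 difference -0.27 ± 0.07, SE, adjusted p = 0.0141), and it passed under all 23 alternatives. *Rorb* was at 1527 to 2250 and 1318 to 1724 (-0.32 ± 0.09, adjusted p = 0.026), and the call was lost with the replicate block (0.0766) and without WT 3 (0.0515), WT 5 (0.051), WT 6 (0.0569), rd6 1 (0.0557) or rd6 5 (0.0501).

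Of the E-box repressors, *Bhlhe41* (DEC2) fell from 3279 to 4365 in WT to 2467 to 3297 in rd6, with 5 rd6 libraries below the lowest WT library (log2 difference -0.40 ± 0.09, SE, adjusted p = 0.00568), while its relative *Bhlhe40* (DEC1) differed by 0.03 ± 0.05 (adjusted p = 0.726). *Bhlhe41* shares 1280 exonic bases (19.0%) with *Gm43909* on the opposite strand. *Nfil3*, a D-box repressor that REV-ERBs hold down, was at 160 to 311 in WT and 169 to 248 in rd6 (log2 difference -0.04 ± 0.16, SE, adjusted p = 0.892), and the sign turned without WT 4 (0.087) and without rd6 3 (0.0028). Among 9 genes whose products modify clock proteins, *Cipc*, the gene of a CLOCK-interacting repressor, was at 3644 to 5055 in WT and 2832 to 3629 in rd6 without overlap (-0.44 ± 0.08, adjusted p = 0.0019). *Csnk1d*, the gene of the kinase that phosphorylates PER proteins, differed by -0.20 ± 0.06 (adjusted p = 0.0232), a call lost with edgeR and upper-quartile scaling (0.0573), with the replicate block (0.0781) and without WT 3 (0.0545). *Btrc*, an adaptor for the breakdown of phosphorylated PER, differed by -0.22 ± 0.07 (adjusted p = 0.041), a call that held under 10 of 23 alternatives, with adjusted p-values of 0.0125 to 0.113. Of 5 genes that follow the clock in many tissues, *Tspan4* was at 1415 to 1994 in WT and 2128 to 2393 in rd6 without overlap (0.46 ± 0.08, adjusted p = 0.00082), and it shares 292 exonic bases (13.4%) with *Chid1* on the opposite strand. *Usp2*, *Tsc22d3*, *Wee1* and *Noct* did not pass.

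**Figure D2:**
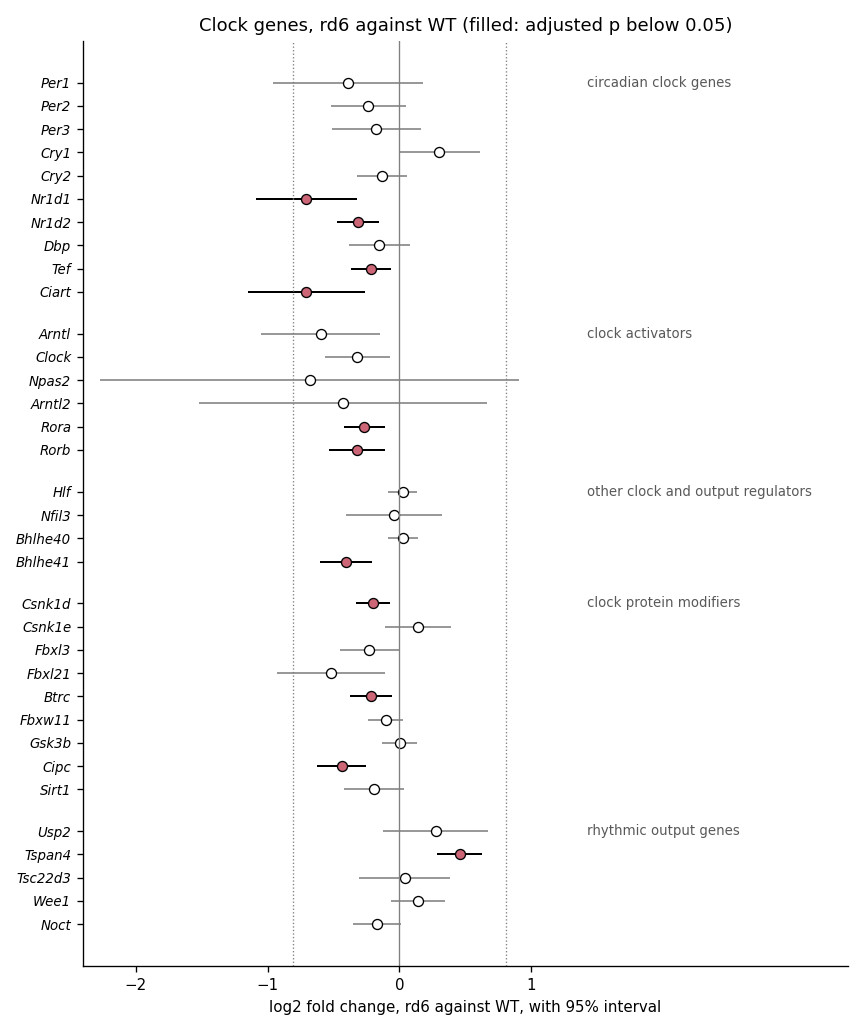
Log2 fold change of rd6 against WT (x axis) with its 95% interval for the 10 clock genes and all but 1 of the other genes of the clock lists (y axis). Filled points passed at an adjusted p below 0.05, and dotted lines mark the fold limit of the study (0.81 on the log2 scale), which no filled point passes.

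Whether the genotypes differed as samples of different hours would was described with genes that peak at opposite times. The log2 ratio of *Dbp* to *Arntl* was 4.04, 5.41 and 5.94 in WT (lowest, median and highest) and 5.18, 5.68 and 6.04 in rd6, and the ranges overlapped. The mean ratio was 0.44 higher in rd6, and the difference stayed between 0.21 and 0.59 when any 1 library was left out. The log2 ratio of *Nr1d1* to *Arntl* was 2.78, 3.81 and 4.20 in WT and 2.81, 3.66 and 3.86 in rd6, with a difference of -0.11 and a range of -0.29 to 0.04 with 1 library left out. The mean log2 ratio of *Per2* to *Arntl* was 2.24 ± 0.78 in WT and 2.61 ± 0.37 in rd6 (SD, n = 6), with a difference of 0.36. The largest difference among the 4 ratios computed was that of *Nr1d1* to *Cry1*, -1.01, with 2.58 to 3.28 in WT (mean 2.97 ± 0.29, SD, n = 6) and 0.72 to 2.85 in rd6 (mean 1.96 ± 0.76), and these ranges overlapped too. Only the ratios of *Dbp* and of *Nr1d1* to *Arntl* were planned. Each difference of a ratio restates the log2 differences of its genes given above. That of *Nr1d1* to *Cry1* sets a gene lower in rd6 against the only clock gene examined with a higher mean. *Nr1d1*, *Nr1d2*, *Tef* and *Ciart* passed as lower in rd6. The means of *Arntl*, which peaks opposite to *Nr1d1*, and of *Dbp*, *Cry2* and the *Per* genes were lower without passing. That of *Cry1* was higher without passing. Since no label gives the hour, a difference in collection time and the genotype cannot be told apart in these libraries.

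**Figure D3:**
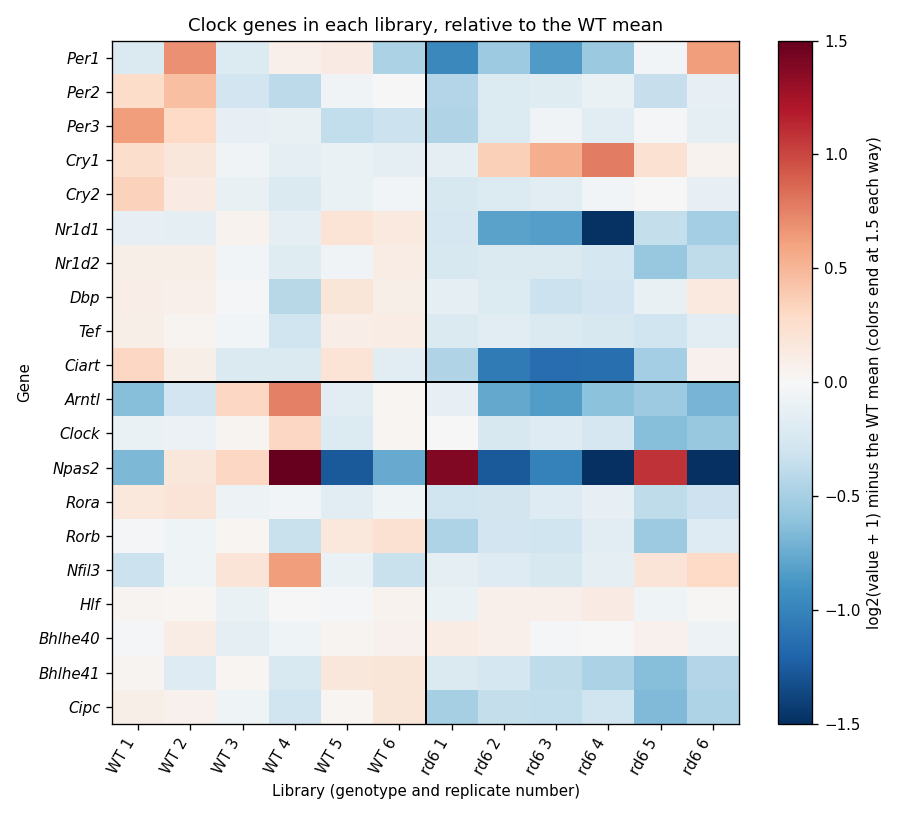
Clock genes (rows) in each library (columns, genotype and replicate number), as log2(value + 1) minus the mean of the 6 WT libraries, with the color scale ending at 1.5 each way. *Nr1d1* and *Ciart* are lowest in rd6 2, 3 and 4, in which *Cry1* is highest among rd6, and WT 1 and 2 hold the highest WT levels of *Per2*, *Per3*, *Cry1* and *Cry2*.

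Libraries of the same genotype also differed in the clock genes. WT 1 and WT 2 had the 2 highest WT values of *Per2* (1860 and 2100), *Per3* (2258 and 1806), *Cry1* (636 and 594) and *Cry2* (2091 and 1787), and the 2 lowest WT values of *Arntl* (207 and 265). In rd6, libraries 2, 3 and 4 had the 3 lowest values of *Nr1d1* (2379, 2340 and 1487) and of *Ciart* (201, 190 and 193) and the 3 highest of *Cry1* (681, 773 and 901). These libraries were picked out after their values were seen, and the labels neither set them apart nor say whether replicate numbers follow an order of collection.

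The SD between libraries of 1 genotype, on the log2(value + 1) scale, placed the 10 genes between percentiles 20 and 83.2 of all genes tested, with a median percentile of 60.7 and 6 of 10 above the middle. *Per1* was the most variable (SD 0.51), followed by *Ciart* (0.38), *Nr1d1* (0.33), *Per3* (0.30), *Cry1* (0.26) and *Per2* (0.24), and *Dbp* (0.190), *Cry2* (0.16), *Nr1d2* (0.13) and *Tef* (0.12) were below the median of 0.195 over all genes tested. *Arntl* had an SD of 0.39, and *Hlf* (0.07) and *Bhlhe40* (0.08) varied least among the clock genes named. The larger spread lay in different genotypes. *Nr1d1* varied 1.28-fold over the WT libraries and 2.34-fold over the rd6 libraries, whereas *Per3* varied 2.00-fold over WT and 1.35-fold over rd6.

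**Figure D4:**
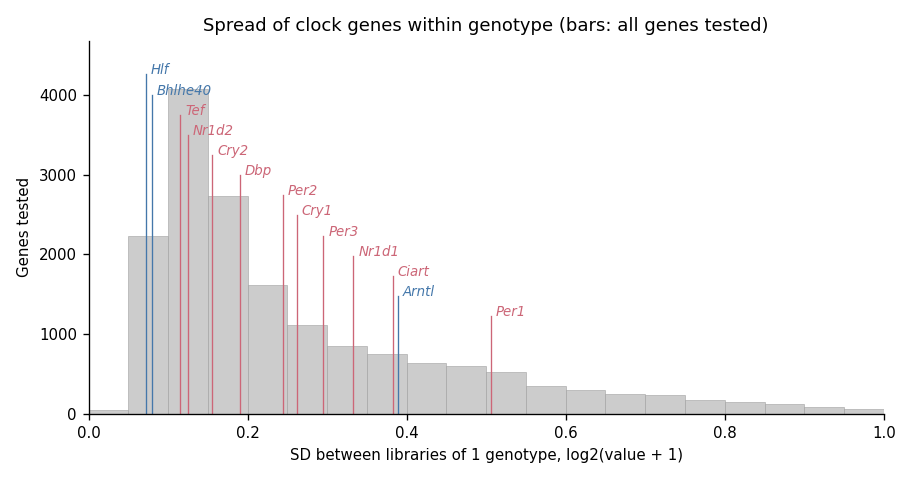
Number of genes tested (bars) by the SD between libraries of 1 genotype on the log2(value + 1) scale, drawn up to an SD of 1, with the 10 clock genes (red) and *Arntl*, *Hlf* and *Bhlhe40* (blue) as vertical lines whose heights carry no value. The clock genes run from *Tef* at 0.12 to *Per1* at 0.51.

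All 45 pairs of the 10 genes were correlated across the 6 libraries of each genotype, which makes 90 correlations. At an unadjusted exact permutation p below 0.05 there were 6 in WT and 3 in rd6, none passed after Benjamini-Hochberg adjustment over the 90, and the lowest adjusted p was 0.292 for Pearson's r and 0.5 for Spearman's coefficient. The sign was positive in both genotypes in 20 pairs, negative in both in 5 and opposite in 20. In rd6, *Cry1* ran opposite to *Nr1d1*, which encodes its repressor in the loop (Pearson's r = -0.92, exact permutation p = 0.00972, Spearman's coefficient = -0.94, exact permutation p = 0.0167), and r was -0.76 without the 2 libraries farthest from the median of *Cry1*. In WT the same pair gave r = -0.59 (exact permutation p = 0.264) and Spearman's coefficient = -0.03. *Dbp* and *Ciart* gave r = 0.95 in rd6 (exact permutation p = 0.00417, Spearman's coefficient = 0.94 with exact permutation p = 0.0167, r = 0.88 without the 2 farthest libraries) and r = 0.62 in WT (exact permutation p = 0.147). *Dbp* and *Tef* gave r = 0.98 in WT (exact permutation p = 0.00972, Spearman's coefficient = 0.83 with exact permutation p = 0.0583) but 0.45 without the 2 farthest libraries, so that the relation rested on those, and 0.28 in rd6 (exact permutation p = 0.597). The 3 pairs were named after their values were seen.

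**Figure D5:**
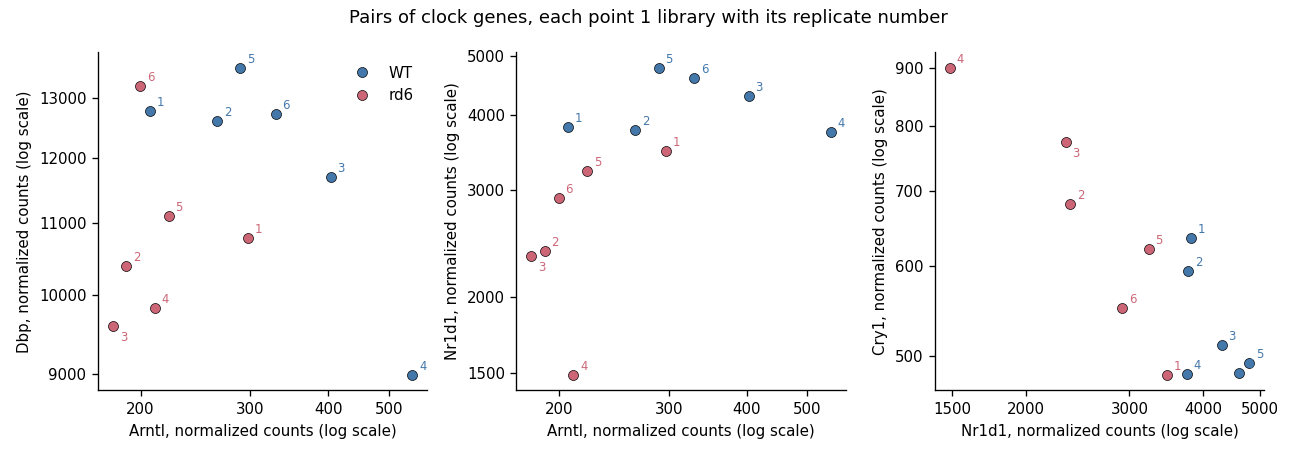
Normalized counts of 3 pairs of clock genes in the 12 libraries, on log scales, with replicate numbers beside the points. *Dbp* and *Nr1d1* are plotted against *Arntl*, and *Cry1* against *Nr1d1*, where rd6 4 is the lowest in *Nr1d1* (1487) and the highest in *Cry1* (901).

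The patterns most like *Dbp* and *Arntl* were sought among 12874 genes with a mean of at least 100, as Pearson's r of deviations from the genotype means over the 12 libraries. For *Dbp* they were *Zkscan17* (r = 0.94), *G6pc3* (0.94), *Lrp10* (0.91), *Slc22a18* (0.91) and *Ccdc92* (0.91). *Tef* (r = 0.79) and *Ciart* (0.74) were at ranks 201 and 452, and *Clock* (-0.74) was near the opposite end. For *Arntl* they were *Gm10259* (0.91), *Rassf3* (0.90), *Dapk1* (0.90), *Lsm2* (0.89) and *Jak1* (0.89), and *Per2* (-0.85), *Cry2* (-0.76) and *Tef* (-0.73) ran most against it among the 10. For *Cry1*, chosen after its values were seen, *Nr1d1* was at -0.86. These libraries share their dissection, so that r also carries any difference in tissue makeup between them.

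Genes that answer to the signals that set or disturb clocks were compared in the same fit, in which 11.6% of all genes tested were lower and 11.4% higher. Of 7 tested genes of light, dopamine and melatonin input, *Drd2*, a dopamine receptor, was at 9.7 to 36.3 in WT and 50.7 to 87.6 in rd6 without overlap, 3.36-fold higher (log2 difference with an SE of 0.29 and a 95% interval of 1.12 to 2.38, adjusted p = 0.000901), and *Crtc2*, a CREB coactivator, was lower (-0.24 ± 0.06, adjusted p = 0.0154). Of 10 immediate early genes all had positive differences, against 9017 of all 17768 genes tested. Of these 10, *Atf3* alone passed (1.36 ± 0.39, adjusted p = 0.0232), with 195 normalized counts in rd6 5 and 62.9 to 76.5 in the other rd6 libraries. Of 6 glucocorticoid response genes, *Sgk1* (-0.39 ± 0.10, adjusted p = 0.0157), *Klf9* (-0.42 ± 0.12, adjusted p = 0.0192) and *Errfi1* (-0.56 ± 0.04, adjusted p = 2.26e-06) were lower. *Fkbp5*, a gene strongly raised by glucocorticoids, was at 145, 263, 496, 798, 921 and 1458 in WT 1 to 6 and at 990, 655, 782, 419, 414 and 278 in rd6 1 to 6, and did not pass (adjusted p = 0.962). Of 7 temperature response genes none passed by limma or edgeR, 1 had an unadjusted p below 0.05 and 1 passed by DESeq2. Among them *Cirbp*, a cold-inducible and often rhythmic gene, was at 3399, 2830, 1897, 2009, 1465 and 1289 in WT 1 to 6 and at 1866, 2014, 2044, 2323, 3727 and 3253 in rd6 1 to 6. WT 1 and 2, the libraries with the highest *Per2* and *Per3*, had the highest *Cirbp* and the lowest *Fkbp5* of WT. In rd6 the highest *Cirbp* and the lowest *Fkbp5* were in rd6 5 and 6. There *Per2* was at 1213 and 1408 and *Per3* at 1446 and 1319, while *Per2* was highest in rd6 4 (1430). The lowest *Cirbp* and the highest *Fkbp5* of rd6 were in rd6 1, with the lowest *Per2* (1130) and *Per3* (1071) of rd6. Those of WT were in WT 6, in which *Per2* (1542) and *Per3* (1170) were not the lowest. Whether these genes share a pattern was not tested.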

How the data were processed

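The authors isolated RPE from both eyes of a mouse, made stranded total-RNA libraries, sequenced read pairs, aligned them to mm10 and counted them with Rsubread under standard parameters, whose default ignores strand, and normalized them with DESeq2. The versions and the strand setting itself are not given in the sources used here. The deposited signal, called normalized counts, is the read count divided by the size factor. The deposited mean, fold changes and p-values of the authors' own comparison were not used. All deposited values were whole multiples of 1 read (100%, tolerance 0.01 reads), so reads could be recovered. Of 28596 entries, 5 repeats were dropped.

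Genes with a mean of at least 10 (17768) were tested on log2(value + 1) with limma 3.58.1 (lmFit and eBayes with trend, R 4.3.3), with genotype as the only term. Adjusted p-values are Benjamini-Hochberg over all genes tested, and fold changes on this scale understate the change of low genes. Single genes were also compared by exact two-sided permutation of the genotypes over the 12 libraries (Python 3.11.15). The fit was repeated with a pseudocount of 0.1 or 10, without the filter, with only genes reaching 10 in each library, with TMM rescaling, with edgeR 4.0.16 and DESeq2 1.42.0 on recovered reads, with a replicate block, with each of 12 libraries left out, and, added after seeing the data, WT 4 and rd6 5 left out together and the ratios of *Dbp* and of *Nr1d1* to *Arntl* with each library left out. The script recovered known changes in simulated data. Groups and replicate numbers come from the sample titles. Libraries are of separate mice. Reads on genes numbered 28907262 to 33152725 a library, which bounds counting error only, since PCR copies are counted as reads. The clock genes and lists were chosen with earlier results of these data known. Named were the 10 genes, every list gene passing at 0.05, *Arntl*, *Clock*, *Npas2*, *Nfil3*, *Hlf*, *Bhlhe40* and *Bhlhe41*, and the 5 genes most like *Dbp* and *Arntl*. *Thra*, *Sphk2*, *Fkbp5*, *Cirbp*, *Aqp4* and *Xist* were named after their values were seen, and *Mfrp* as the mutated gene. Gene positions are from GENCODE M21 (GRCm38, which is mm10). The values of some genes of the lists are not reported here.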

Additional observations from a re-analysis of the deposited data

Results flagged for a closer look

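In 34 genes named in the text or standing close to them, the 6 libraries of each genotype were searched for a value far from the others by Dixon's test (95% level) of the gap to the nearest value as a share of the group's range. Chance marks about 1 in 20 groups, and 4 of 68 were marked, none of them in the 10 clock genes. *Arntl* was highest in rd6 1 (297 normalized counts, next 222), with a gap of 0.645 of the range. *Npas2* was highest in WT 4 (181.6, next 47.7), with a gap of 0.806. *Atf3* was highest in rd6 5 (195, next 76.5), with a gap of 0.897. *Rbm3*, a cold-inducible gene, was highest in rd6 5 (1028, next 716), with a gap of 0.727.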

How the results depend on the processing

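The signs of the 10 clock genes held under all 23 alternatives. The number lower in rd6 was 4 as reported, 2 with edgeR and upper-quartile scaling, 5 without WT 4 and rd6 5, and 2 to 5 with 1 library left out, and the number higher was 0, or 0 to 1 with 1 library left out (*Cry1* without rd6 1). Of the 25 other clock genes, 6 lower became 8 with DESeq2, 4 with edgeR and upper-quartile scaling, 3 with the replicate block and 3 to 7 with 1 library left out, and 1 higher became 2 with DESeq2 and 1 to 2 with 1 library left out. The log2 difference of *Nfil3* (-0.038) ran from -0.106 to 0.0871 with 1 library left out, with 0.0028 without rd6 3, and was 0.0402 without WT 4 and rd6 5. The causes were not tested.

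Over all genes, 1631 to 2428 were higher and 1593 to 2293 lower with 1 library left out, and 727 to 1051 and 315 to 535 of them past the fold limit as well. The replicate number is shared by libraries of different mice. Deviations of same-numbered libraries correlated at -0.74 to 0.31 (mean -0.25), and 0 of 12 libraries correlated best with its own number. This count finds only likeness, so it does not show that the numbers carry no order. *Fkbp5* rose with replicate number in WT and ran mostly the other way in rd6, and an order of the numbers was not tested. The replicate block gave 1453 genes with higher and 1489 with lower levels in rd6. Among the 10 clock genes it gave 3, *Tef* being the one outside the limit (adjusted p = 0.0636). The block also left *Rorb* (0.0766), *Csnk1d* (0.0781), *Btrc* (0.113), *Atf3* (0.0527), *Sgk1* (0.0652) and *Klf9* (0.0662) outside it. Differences of the *Per* and *Cry* genes within the intervals given could not be resolved with 6 libraries of each genotype.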
